A study of Mus musculus with 28 samples.

Results

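Schwann cells and neurons are the cell types of nerve, and 8 genes that mark them were followed tooth by tooth in developing mouse molars. Sox10, Erbb3, Foxd3, and Fabp7 mark Schwann cells and their precursors, and Tubb3, Stmn2, Prph, and Elavl4 mark neurons. The genes were chosen by name as a gauge of the nerve tissue around the tooth germ, and they are 8 of the 52636 genes in the count table. RNAseq had been made from single first molar tooth germs of wild type C57BL/6JOlaHsd mice, dissected with as little surrounding tissue as possible. Each library is 1 tooth, and the table holds 7 teeth of E13 (bud stage, labelled E13.5), 7 of E14 (cap stage, labelled E14.5), and 7 of E16 (bell stage, labelled E16.5). The E13 teeth came from 7 embryos, the E14 teeth from 6, and the E16 teeth from 5, so that some teeth of E14 and E16 share an embryo. A further table holds 6 teeth of E15 beside the E13 and E16 teeth.

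The nerves of the molar come from the trigeminal ganglion, whose neurons keep their cell bodies, and most of their mRNA, outside the tooth. Their axons are in the jaw by the bud stage of the tooth, run in the mesenchyme that surrounds the germ, and enter the dental papilla only after birth. Schwann cell precursors, which arise from the neural crest, travel along these axons and depend on Neuregulin 1 that binds their ErbB3 receptor. In a dissected tooth germ, Schwann lineage RNA can therefore be read from cell bodies in the tissue, whereas the cell bodies of the sensory neurons are not part of it. Which cells in the dissected tissue gave the reads of the neuron markers was not tested. With whole germs, fewer cells of a type and less RNA per cell cannot be told apart.

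The libraries held between 19187478 and 24109057 counts at E13, between 23210069 and 25711785 at E14, and between 17814073 and 27115729 at E16. A pair of teeth stood apart. The left tooth of embryo 7 at E13 had a summed level of 29319 normalized counts over 8 skeletal muscle genes, against 839 to 4852 in the other E13 teeth. At E16, embryo 3 gave a left tooth with the lowest sum of its stage in 10 of the 12 further marker lists examined. The calls of the members and the counts of the marker lists were also made without these teeth, and the larger changes from E13 to E16 are given beside the results. A further tooth, the left tooth of embryo 8 at E14, had a bone sum of 31565 normalized counts, against 11334.5 to 18444.7 in the other E14 teeth. It was left out only where the members were tested with each tooth left out, and it stayed in the marker lists. Markers of tooth epithelium and mesenchyme, among them Shh, Krt14, Epcam, Pax9, Msx1, Dlx3, and Lhx6, were present in each stage, with sums between 23173 and 45061 normalized counts per tooth.

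In the GRCm38 genome, the Schwann cell markers lie on 3 chromosomes. Sox10 (ENSMUSG00000033006) is at chr15:79154908-79165240 on the minus strand, Erbb3 (ENSMUSG00000018166) at chr10:128567523-128589652 on the minus strand, Foxd3 (ENSMUSG00000067261) at chr4:99656299-99658622 on the plus strand, and Fabp7 (ENSMUSG00000019874) at chr10:57784881-57788450 on the plus strand. Of the neuron markers, Tubb3 (ENSMUSG00000062380) is at chr8:123411424-123422015 and Stmn2 (ENSMUSG00000027500) at chr3:8509360-8561606, both on the plus strand. Prph (ENSMUSG00000023484) is at chr15:99055174-99058978 on the plus strand and Elavl4 (ENSMUSG00000028546) at chr4:110203722-110351909 on the minus strand. Values are summed over the exons of each gene. Foxd3, a gene of a single exon, shares 89 exon bases with the predicted microRNA gene Gm23366, which is 3.83% of its exon length.

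Promoter windows of 250 bases before the RefSeq start were at hand for 5 of the 8 genes, and those of the 2 genes among them that fell from E13 to E16 are shown here. Both genes lie on chromosome 4. Capitals mark the letters CANNTG, the E-box that basic helix-loop-helix factors read, searched on both strands.
Foxd3, chr4:99656049-99656298, plus strand, GRCm38.p6: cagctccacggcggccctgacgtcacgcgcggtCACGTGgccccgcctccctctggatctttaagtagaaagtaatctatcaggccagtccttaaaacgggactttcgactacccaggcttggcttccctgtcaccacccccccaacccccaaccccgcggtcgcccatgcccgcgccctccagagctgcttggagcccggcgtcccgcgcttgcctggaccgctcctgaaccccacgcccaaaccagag
Elavl4, first of 4 RefSeq starts, chr4:110351912-110352161, minus strand, GRCm38.p6: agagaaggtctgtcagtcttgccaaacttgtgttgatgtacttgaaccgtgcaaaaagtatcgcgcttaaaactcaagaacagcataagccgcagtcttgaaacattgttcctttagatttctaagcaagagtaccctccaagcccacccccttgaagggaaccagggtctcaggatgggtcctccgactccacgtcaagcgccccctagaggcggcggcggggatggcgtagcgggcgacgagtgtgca
The Foxd3 window holds 1 E-box, whose first base is at -217 from the start, and this Elavl4 window holds none. The other Elavl4 windows hold 3, 3, and 1, but those with 3 overlap and hold the same E-boxes. In all, 5 of 8 windows hold an E-box, 3 of them Elavl4's, against 66.2% of 32536 mouse windows of this length. The core letters ACAAAG that SOX factors read are in 0 of the 8 windows, on either strand, against 5360 of the 32536.

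**Figure D1:**
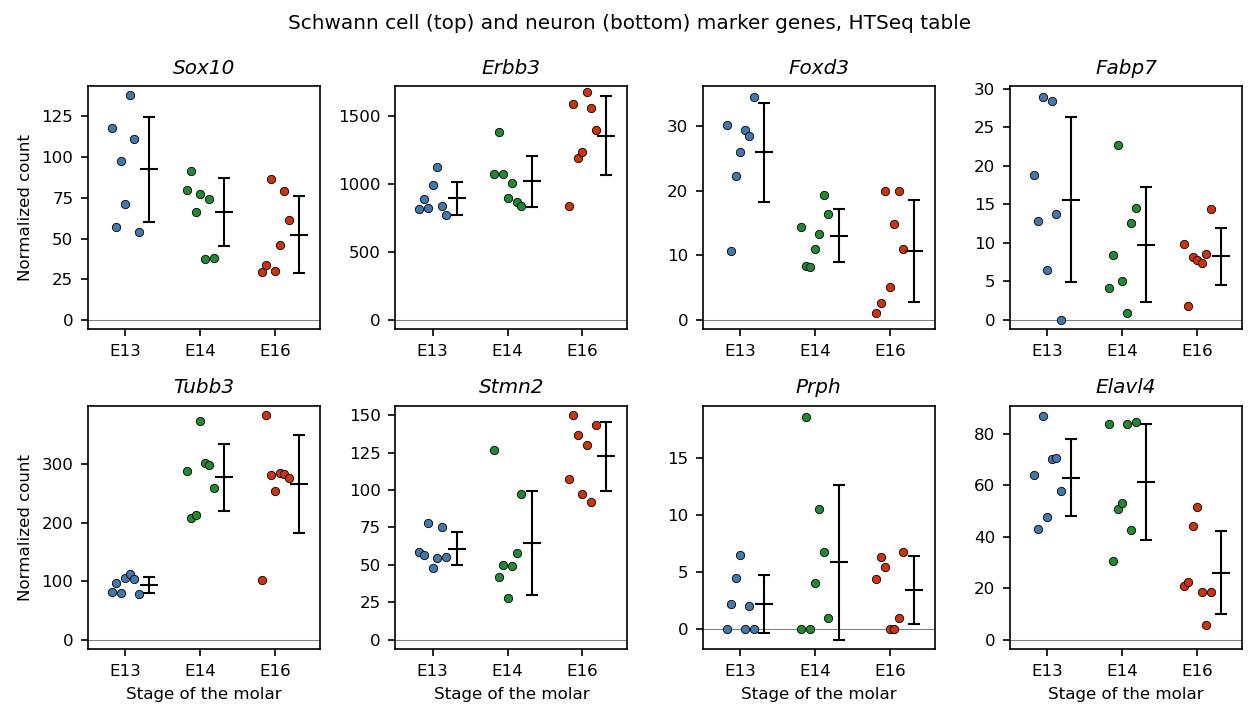
Normalized counts (y axis) of the 4 Schwann cell markers (top) and the 4 neuron markers (bottom) at E13, E14, and E16 (x axis). Each point is 1 tooth, the bars beside them are the mean ± SD of 7 teeth, and a grey line marks 0. The E13 and E14 teeth are apart in Tubb3, the E13 and E16 teeth are apart in Stmn2, and the stages overlap in the other 6 genes.

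The 8 genes spanned from nearly absent to moderately expressed. To compare genes, normalized counts were divided by exon length. At E13, Erbb3 had the highest level with 149 ± 20.7 normalized counts per kb (SD, n = 7), which was above 69.4% of 21819 protein-coding genes. Tubb3 followed with 50.3 ± 7.45 and Sox10 with 30.3 ± 10.6 normalized counts per kb. Fabp7, Elavl4, Foxd3, and Stmn2 lay between 10.9 and 12.5, and Prph was at 1.08 normalized counts per kb. At E14, Erbb3 (169 per kb) and Tubb3 (149 per kb) overlapped between teeth, and Tubb3 was above Sox10 (21.7 per kb) in every tooth. At E16, Erbb3 (225 per kb) and Tubb3 (143 per kb) again led, followed by Stmn2 with 21.9 and Sox10 with 17.2 normalized counts per kb. Among neighbors in this order, the ranges of the teeth did not overlap for Erbb3 and Tubb3 at E13, Stmn2 and Prph at E13, Tubb3 and Sox10 at E14, and Tubb3 and Stmn2 at E16. The ranges of all other neighbors overlapped.

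Sox10, the transcription factor that specifies and maintains the Schwann lineage, had the highest values at the bud stage. Its normalized counts were between 54.2 and 138 with a median of 97.9 at E13, between 37.1 and 91.2 with a median of 74.3 at E14, and between 29.4 and 86.8 with a median of 45.9 at E16. The 3 ranges overlap, and each stage has teeth in both the upper and the lower part of its range. Sox10 fell by 0.83 (SE 0.28) on the log2 scale from E13 to E16, which was past the threshold of edgeR's quasi-likelihood test with Benjamini-Hochberg adjustment over all genes (adjusted p = 0.0208). The steps from E13 to E14 (log2 fold change -0.49, adjusted p = 0.233) and from E14 to E16 (-0.34, adjusted p = 0.405) were not. The call depends on single teeth. Without the muscle-rich E13 tooth, which had the highest Sox10 value, the log2 fold change was -0.69 with an adjusted p of 0.0625, and without either of 2 E16 teeth with low values (embryo 5 left and embryo 6 right) the adjusted p was 0.0514 and 0.0538. Without both teeth that stood apart, the log2 fold change was -0.59 (adjusted p = 0.0923).

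Foxd3, a neural crest transcription factor that is kept on in Schwann cell precursors, was weakly expressed. Normalized counts ran from 10.7 to 34.5 (median 28.5) at E13, from 8.17 to 19.3 (median 13.3) at E14, and from 1.09 to 19.97 (median 10.97) at E16. All but 1 of the E13 teeth, the left tooth of embryo 2, lay above every tooth of E14 and E16. Foxd3 fell by 1.28 (SE 0.42) on the log2 scale from E13 to E16, or 2.43-fold (adjusted p = 0.0163). From E13 to E14, the log2 fold change of -0.99 (SE 0.41) had an unadjusted p of 0.0239 and an adjusted p of 0.0920. The lowest tooth, at a single count, was the left tooth of embryo 3 at E16, and without it in the shared fit the E13 to E14 step had an adjusted p of 0.0418.

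Erbb3, the receptor for Neuregulin 1 in the Schwann lineage that is also used in many epithelia, went the other way. Its normalized counts were between 771 and 1125 (median 834) at E13, between 841 and 1380 (median 1009) at E14, and between 837 and 1675 (median 1396) at E16. With the exception of the left tooth of embryo 3, every E16 tooth lay above every E13 tooth. Erbb3 rose from E14 to E16 (log2 fold change 0.40, SE 0.13, adjusted p = 0.0217) and from E13 to E16 (0.59, SE 0.13, adjusted p = 0.000735). With the teeth of an embryo summed, the E14 to E16 step had the same log2 fold change and an adjusted p of 0.0584. The rise from E13 to E16 was 1.51-fold, whereas Sox10 and Foxd3, named for the same cells, fell over the same interval. At E16, Erbb3 exceeded Sox10 in level per kb in all teeth, with a mean of 225 against 17.2.

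Fabp7, a fatty acid binding protein of Schwann cell precursors and of radial glia, was near the limit of detection. Normalized counts were between 0 and 28.9 (median 13.7) at E13, between 0.952 and 22.7 (median 8.38) at E14, and between 1.79 and 14.3 (median 8.14) at E16. The stages overlapped widely, and 1 E13 tooth had no count, which allows up to 3 counts or 3.70 normalized counts in that tooth. No comparison of Fabp7 was past the threshold, with log2 fold changes of -0.68 for E14 against E13 (adjusted p = 0.428), -0.25 for E16 against E14 (0.789), and -0.92 for E16 against E13 (0.202).

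Tubb3, the class III beta-tubulin of neurons and their axons, had the clearest change of the 8 genes. Its normalized counts were between 77.6 and 112 (median 97.5) at E13, between 208 and 374 (median 288) at E14, and between 102 and 384 (median 281) at E16. All E14 teeth were above all E13 teeth, as in 9.92% of the genes tested, and the E16 teeth were between 255 and 384 except the left tooth of embryo 3, at 102. Tubb3 rose 2.94-fold from E13 to E14 (log2 fold change 1.56, SE 0.19, adjusted p = 2.26e-06) and stayed near that level, with a log2 fold change of -0.06 from E14 to E16 (SE 0.18, adjusted p = 0.839). From E13 to E16 it rose by 1.5 on the log2 scale (adjusted p = 8.40e-07).

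Stmn2, a microtubule regulator of growing axons, rose later. Normalized counts were between 47.7 and 77.9 (median 56.8) at E13, between 28.1 and 127 (median 50.0) at E14, and between 92.2 and 150 (median 130) at E16. All E16 teeth were above all E13 teeth, as in 18.7% of the genes tested, and at E14 only the right tooth of embryo 1 (127) and the left tooth of embryo 8 (97.4) reached the E16 range. The log2 fold change was 0.08 from E13 to E14 (adjusted p = 0.865), 0.92 from E14 to E16 (SE 0.24, adjusted p = 0.00547), and 1.00 from E13 to E16 (SE 0.24, adjusted p = 0.00189).

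Elavl4 (HuD), an RNA-binding protein of differentiating neurons, fell where Stmn2 rose. Normalized counts were between 42.9 and 86.8 (median 64.1) at E13, between 30.7 and 84.7 (median 53.2) at E14, and between 5.71 and 51.6 (median 20.7) at E16. At E16, 5 of 7 teeth were below every tooth of E13 and E14, and both teeth of embryo 6 were within the earlier range. The log2 fold change was -0.04 from E13 to E14 (adjusted p = 0.949), -1.23 from E14 to E16 (SE 0.33, adjusted p = 0.00599), and -1.27 from E13 to E16 (SE 0.33, adjusted p = 0.00307).

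Prph, the intermediate filament peripherin of peripheral neurons, was almost absent. Its count was 0 in 3 of 7 teeth at E13, 2 of 7 at E14, and 2 of 7 at E16, and a count of 0 allows between 2.58 and 3.72 normalized counts in these teeth. The highest tooth of each stage was at 6.5, 18.6, and 6.75 normalized counts, with medians of 1.96, 4.01, and 4.35. Prph did not pass the filter on low counts and is the 1 member without a main test. Fitted without the filter, its adjusted p values were 0.388, 0.643, and 0.674 for E14 against E13, E16 against E14, and E16 against E13, so that no change was detectable at this depth.

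**Figure D2:**
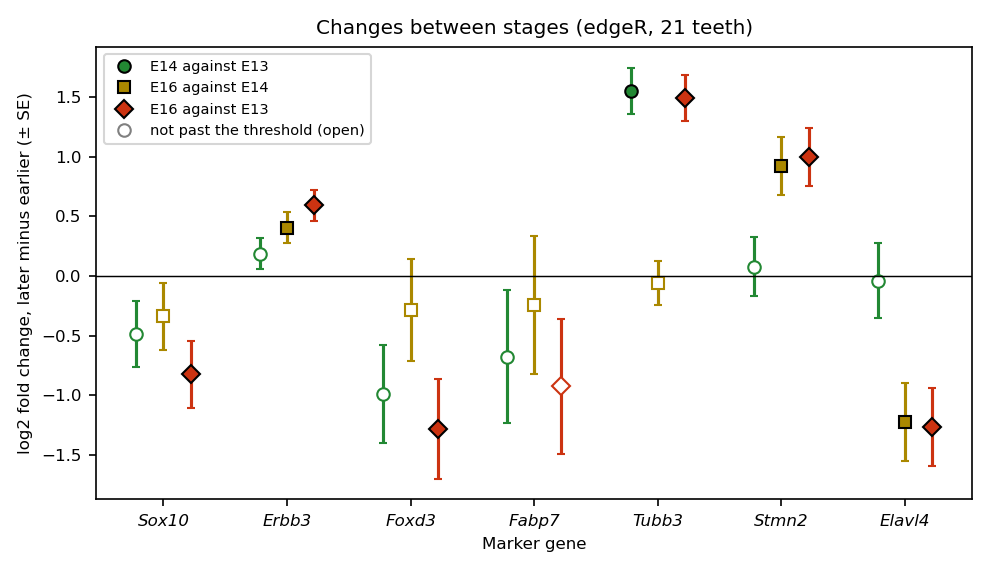
Log2 fold change between stages (y axis, later minus earlier, ± SE) of the 7 markers tested with edgeR (x axis). Filled symbols are past an adjusted p of 0.05. Tubb3 is the only gene past it for E14 against E13, and for E16 against E13 Erbb3, Tubb3, and Stmn2 lie above 0 and Sox10, Foxd3, and Elavl4 below.

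Of the 7 markers tested, 1 was called from E13 to E14 (19.7% of all 19101 genes tested were called), 3 from E14 to E16 (28.1% of all genes), and 6 from E13 to E16 (41.3% of all genes). The call from E13 to E14 was 1 higher and 0 lower (11.3% and 8.47% of all genes). Foxd3 was the 1 member lower at an unadjusted p below 0.05 in that step. The calls from E14 to E16 were 2 higher and 1 lower (15% and 13.1% of all genes), and those from E13 to E16 were 3 higher and 3 lower (21.6% and 19.6% of all genes). From E14 to E16, the teeth of 0 of the 7 markers were fully apart, against 10.8% of the genes tested. From E13 to E16, neither set of markers moved as a unit, as 1 Schwann marker rose and 2 fell, and 2 neuron markers rose and 1 fell. Changes in the number of Schwann cells or neurons were not measured. The median log2 fold change from E13 to E16 was -0.88 for the 4 Schwann markers and 1.00 for the 3 neuron markers tested, against -0.01 for all genes. Without both teeth that stood apart, the counts from E13 to E16 were 3 higher and 2 lower, with Sox10 no longer called, and the log2 fold changes were 0.76 for Erbb3, 1.69 for Tubb3, 1.02 for Stmn2, -1.18 for Elavl4, and -1.04 for Foxd3 (adjusted p = 0.0391). The 3 comparisons share teeth and are not independent of each other.

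The teeth of a stage differed in these genes by more than counting alone gives. The SD of Sox10 between teeth was between 2.62 and 3.35 times the SD of counting, depending on the stage, and that of Tubb3 rose from 1.40 times at E13 to 5.24 times at E16, where the left tooth of embryo 3 was far below the others. Foxd3 at E14 was close to counting error, at 1.17 times. Relative to genes of like abundance, the variance between teeth (dispersion over the fitted trend) was 1.80 times the trend for Fabp7, 1.44 for Sox10, 1.42 for Elavl4, 1.41 for Tubb3, 1.22 for Erbb3, 1.20 for Stmn2, and 0.972 for Foxd3. The median of all genes was 0.819. By this ratio, Fabp7 was above 91.2% and Foxd3 above 62.7% of the genes tested.

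In the table, 3 embryos gave both of their first molars. In embryo 6 of E16, Sox10 was at 86.8 normalized counts in the left tooth, the highest of the stage, and at 30.1 in the right tooth, close to the lowest. Foxd3 was at 19.9 and 5.16 in the same teeth. In embryo 6 of E14, the right tooth was the higher one for both genes (Sox10 37.1 left and 74.3 right, Foxd3 13.3 and 19.3), and in embryo 8 of E16 the left tooth was (Sox10 78.9 and 61.6, Foxd3 19.97 and 10.97). Tubb3 was nearly equal in the 2 teeth of each of these embryos, with 303 and 298 in embryo 6 of E14, 281 and 255 in embryo 6 of E16, and 283 and 277 in embryo 8 of E16. Elavl4 was at 83.8 in the left and 42.4 in the right tooth of embryo 6 of E14, at 44.3 and 51.6 in embryo 6 of E16, and at 5.71 and 18.6 in embryo 8 of E16. The side of the jaw gave no call. With stage in the model, the log2 difference of right minus left teeth was between -0.15 (Elavl4) and 0.24 (Sox10), all adjusted p values of the members were 1.00, and 0 of 19101 genes were called by edgeR (306 at an unadjusted p below 0.05).

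If all 8 genes gauged one amount of nerve tissue, teeth of a stage that are high in one would be high in the others. The 28 pairs of genes were therefore correlated over the 21 teeth, using log2(normalized count + 1) values centered on the mean of each stage. Of these, 0 pairs passed the threshold after adjustment over the 28 pairs (100000 two-sided permutations of teeth within stages), and 2 pairs had an unadjusted p below 0.05 for Pearson's r and 0 for Spearman's rho. Prph was at 0 in 7 of the 21 teeth, and Fabp7 and Foxd3 had counts down to 0 and 1. Counting error lowers r in such genes, so 0 calls in 21 teeth cannot tell unrelated genes from weakly related ones. The highest r was that of Sox10 and Foxd3 at 0.53 (rho 0.41, p = 0.0305, adjusted p = 0.491 by permutation), and it was 0.40 within E13, -0.37 within E14, and 0.88 within E16. Without the 2 teeth farthest from the median of Sox10 it was 0.65, and without the left tooth of embryo 3 at E16 it was 0.46. Sox10 and Fabp7 followed among the Schwann pairs with an r of 0.45 (rho 0.28, p = 0.0351, adjusted p = 0.491 by permutation).

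**Figure D3:**
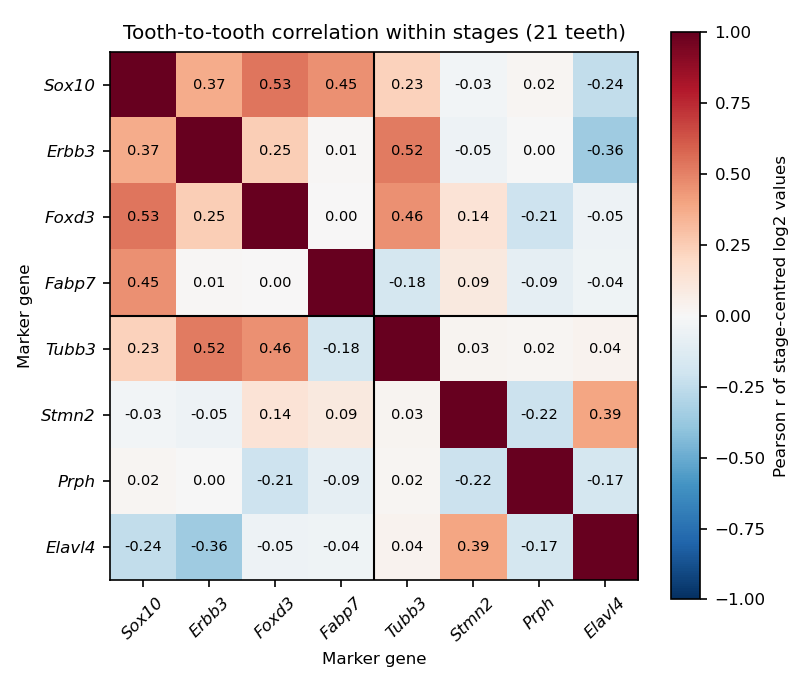
Pearson r between pairs of marker genes (both axes) over 21 teeth, of log2(normalized count + 1) values centered on the stage mean. The black lines separate Schwann markers (upper left) from neuron markers (lower right). Values off the diagonal run from -0.36 to 0.53, and the Schwann block is the one with no r below 0. This rests on 1 tooth, as Erbb3 and Foxd3 had an r of -0.23 without the left tooth of embryo 3 at E16.

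The 6 pairs of Schwann markers had a median r of 0.31 (0.00 to 0.53), the 6 pairs of neuron markers 0.03 (-0.22 to 0.39), and the 16 mixed pairs -0.03 (-0.36 to 0.52). Without the left tooth of embryo 3 at E16, the Schwann pairs ran from -0.23 (Erbb3 and Foxd3, 0.25 with it) to 0.50 (Sox10 and Fabp7). Pairs that share a gene are not independent, and the difference between the 3 kinds of pairs was not tested. Sox10 was nearly unrelated to Stmn2 (r = -0.03) and Prph (r = 0.02) from tooth to tooth, and its r with Tubb3 was 0.23. The highest mixed pair was Erbb3 and Tubb3 with an r of 0.52 (rho 0.37, adjusted p = 0.521 by permutation), which was 0.83 within E13, -0.66 within E14, and 0.89 within E16. The left tooth of embryo 3 had the lowest E16 value of both genes, and without it the r over the 20 other teeth was 0.02 (adjusted p = 0.943 by permutation). The r was 0.40 without the 2 teeth farthest from the median of Erbb3. Of the 28 pairs, 5 had the same sign in all 3 stages.

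The genes whose tooth-to-tooth pattern was most like the mean of the Schwann markers included Olfml2b (r = 0.79), Timp3 (0.79), Pcdh12 (0.76), and Aqp1 (0.76), over the same 21 teeth with stage means removed. For the mean of the neuron markers they were Wdr83 (0.73), Gm4972 (0.72), Gpx7 (0.72), 4921536K21Rik (0.71), and Ybx1-ps2 (0.71). None of the genes named here is in the further Schwann or neuron lists. They are given as a description with no p value, as the highest of 19101 genes share libraries and depth with the members.

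Of 28 further genes of the Schwann lineage that were listed, 23 were tested, and 7 rose and 6 fell from E13 to E16, with a median log2 fold change of 0.13. Without the left tooth of embryo 3 at E16, 24 were tested, and 10 rose and 6 fell (median 0.18). Without both teeth that stood apart, 9 rose and 6 fell (median 0.19). Over all genes, 21.6% were higher and 19.6% lower from E13 to E16, 11.3% and 8.47% from E13 to E14, and 15% and 13.1% from E14 to E16, which is the background for this and the later lists. Among those that fell were Pax3, an early neural crest and muscle precursor factor (182 ± 129 at E13, 5.18 ± 2.63 at E14, and 17.9 ± 12.1 normalized counts at E16), the glial receptor Gfra3 (log2 fold change -1.27, adjusted p = 0.00354), and the Erbb3 ligand Nrg1 (-1.26, adjusted p = 3.87e-05). Nrg1 was at 244 ± 82.9 normalized counts at E13, 154 ± 47.8 at E14, and 102 ± 22.3 at E16. Genes that rose included S100b, a calcium-binding protein of Schwann cells (13.4 ± 5.08 at E13 and 157 ± 23.3 at E16), Mal, a lipid raft protein of myelin and of epithelia (8.51 ± 4.05 and 204 ± 96.5), and L1cam, an adhesion molecule of axons and glia (log2 fold change 1.33).

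Egr2, which drives myelination but also acts in other tissues, rose from 23.4 ± 14.2 at E13 to 371 ± 59.9 at E14 (log2 fold change 4.0, adjusted p = 8.09e-10) and fell to 65.5 ± 23.8 normalized counts at E16 (-2.50, adjusted p = 1.28e-07). The counts of genes called in the list were 5 higher and 4 lower from E13 to E14 (6 and 7 without the left tooth of embryo 3 at E16), with a median of -0.02, and 8 higher and 3 lower from E14 to E16, with a median of 0.22. Per kb, the highest level in the list was that of Zeb2 at E13 (560 normalized counts per kb), of Ngfr at E14 (665), and of Erbb2 at E16 (580), genes that are not limited to the lineage. Mag, a protein of mature myelin, and Gfap, of non-myelinating Schwann cells, stayed at or below 6.45 normalized counts on average in each stage.

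Of 24 genes of neuronal structure and synapses that were listed, 19 were tested, and 5 rose and 5 fell from E13 to E16 (median log2 fold change -0.12). Without the left tooth of embryo 3 at E16, 5 rose and 6 fell, and the median was 0.03. The counts were the same without both teeth that stood apart, with a median of 0.004. The neurofilament genes Nefl and Nefm, which build the axonal cytoskeleton, fell most. Nefl was at 266 ± 42.3 normalized counts at E13, 141 ± 91.3 at E14, and 9.81 ± 5.27 at E16 (E16 against E13 -4.71, adjusted p = 1.02e-10), and Nefm was at 176 ± 40.1, 61.3 ± 34.5, and 19.0 ± 11.8 (-3.20, adjusted p = 2.04e-07). Dcx, a microtubule protein of migrating young neurons (-1.43), and Gap43, of growing axons (-1.04), fell as well. The synaptic vesicle fusion protein Snap25 (1.91), the surface protein Thy1 (1.86), the granin Scg2 (1.61), and the neuronal splicing factor Rbfox3 (0.94) rose.

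As with Tubb3, Thy1 rose at the first step, from 234 ± 69.7 at E13 to 938 ± 255 normalized counts at E14 (adjusted p = 3.01e-06). Snap25 and Scg2, like Stmn2, rose at the second, with log2 fold changes from E14 to E16 of 2.53 and 1.78. From E13 to E14, 4 genes of the list rose and 5 fell (median -0.17), and from E14 to E16 again 4 rose and 5 fell (median -0.31). Map1b, a microtubule protein, had the highest level of the list per kb at each stage (484 to 597 normalized counts per kb). Elavl3, Stmn3, and Scg3, all of postmitotic neurons, had means of at most 3.84 normalized counts.

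Sensory neuron genes, of which 9 of 16 found in the table were tested, had 5 that rose and 1 that fell from E13 to E16 (median log2 fold change 0.71). The sodium channel gene Scn9a (2.30), the peptide precursors Calca (2.23) and Tac1 (1.47), the neurotrophin receptor Ntrk2 (1.67), and Runx1 (0.71) rose, and the transcription factor Isl2 fell (-2.42, adjusted p = 0.00115). From E13 to E14, 2 genes rose and 0 fell, and from E14 to E16, 4 rose and 2 fell. Of the transcription factors of sensory neuron cell bodies, Prdm12 and Tlx3 had stage means of at most 1.94 and Pou4f1 of at most 7.03 normalized counts. Isl2 was higher, with 31.3 ± 10.9 at E13, 17.3 ± 13.9 at E14, and 5.73 ± 4.16 at E16, and Isl1, which did not pass the filter on low counts, was at 15.3 ± 17.3, 1.47 ± 2.02, and 2.41 ± 3.29. The channels Scn10a and Trpv1 of mature nociceptors were at most at 1.09. Runx1 at E13 and E14 and Ntrk2 at E16, both also used outside neurons, had the highest levels of the list per kb.

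Autonomic and motor neuron genes were mostly too low to test, with 4 of 10 tested. Th, the rate-limiting enzyme of catecholamine synthesis, was at 0.453 ± 0.857 normalized counts at E13, 1.62 ± 1.55 at E14, and 49.1 ± 20.3 at E16 (E16 against E14 adjusted p = 9.31e-08). The choline transporter gene Slc5a7, the highest of the list per kb at E13 and E14, fell from 312 ± 34.3 at E13 and 467 ± 111 at E14 to 56.2 ± 22.2 at E16. In contrast, Dbh, which defines noradrenergic neurons, had stage means of at most 0.676, and Chat and Slc18a3, which define cholinergic neurons, of at most 3.13 normalized counts. In the list, 1 gene rose and 1 fell from E13 to E14, 2 rose and 1 fell from E14 to E16, and 2 rose and 2 fell from E13 to E16 (2 and 1 without both teeth that stood apart).

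**Figure D4:**
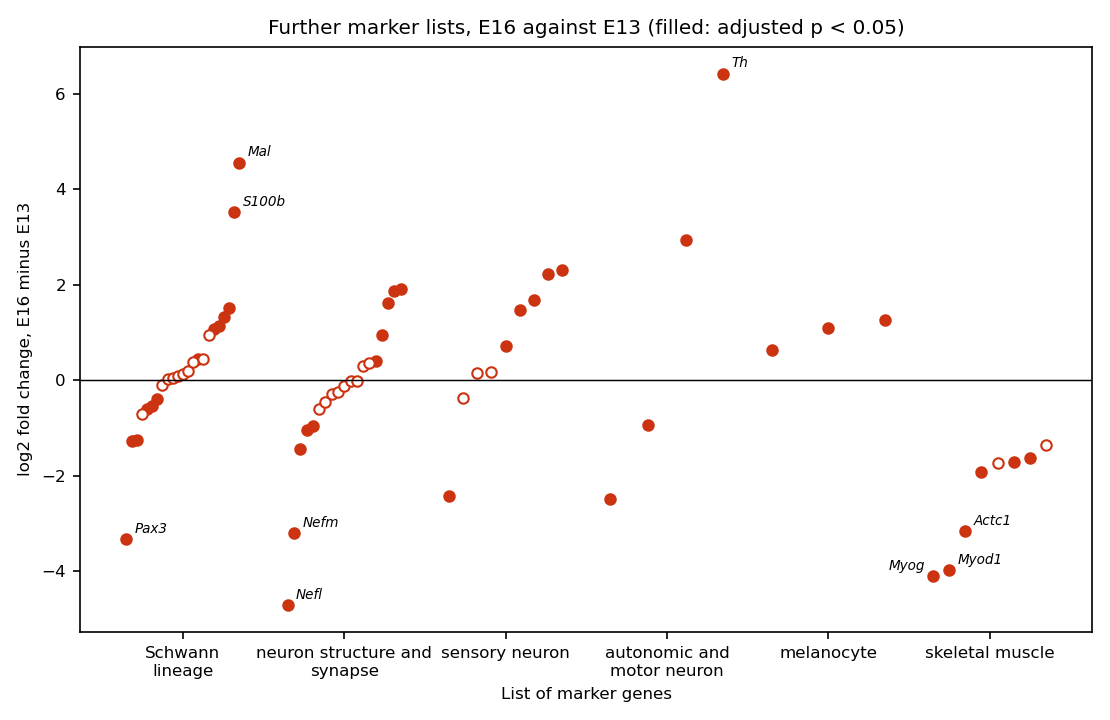
Log2 fold change from E13 to E16 (y axis) of each tested gene of 6 marker lists (x axis, genes in order of the change within a list). Filled points are past an adjusted p of 0.05, and genes beyond 3 in either direction are named. Schwann and neuron lists have points on both sides of 0, and all 8 skeletal muscle genes lie below it.

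Other cell types that use members of the gauge were examined by their own markers. Sox10 and Erbb3 are also genes of the melanocyte lineage. Of 7 melanocyte genes 3 were tested, and Mitf (log2 fold change 1.26), Pmel (1.10), and Kit (0.64), the highest of the list per kb, rose from E13 to E16, with 2 of the 3 called without the left tooth of embryo 7 at E13. The pigment enzyme gene Tyrp1 was at 0 in all teeth, and Dct, Tyr, and Mlana had stage means of at most 4.595 normalized counts. Sox10 is also a gene of salivary gland epithelium, whose 5 listed genes summed to between 1.88 and 38.1 normalized counts per tooth. The part of these cells in the levels of the members was not tested.

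The skeletal muscle list fell in 6 of 8 genes from E13 to E16, and 0 rose (median log2 fold change -1.83). Without the left tooth of embryo 7 at E13, 3 fell and 0 rose (median -0.70), and without both teeth that stood apart, 3 fell and 1 rose (median -0.63). The list had per-tooth sums from 839 to 29319 normalized counts at E13, 819 to 1894 at E14, and 652 to 3677 at E16. The tooth with the highest sum, the left tooth of embryo 7, was also the E13 tooth with the highest Sox10 (138), Erbb3 (1125), and Tubb3 (112) values. All 5 macrophage genes and 3 of 5 bone genes rose from E13 to E16, as did 2 of 5 endothelial genes (4 without the left tooth of embryo 3 at E16), and cartilage genes were split with 2 higher and 3 lower of 5. Of the 8 tooth epithelium and mesenchyme genes, 5 rose and 2 fell. The share of these tissues in the changes of the nerve markers was not tested.

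The E15 teeth gave a further view of the 7 members listed in the second table, whose counts were estimated per transcript with salmon and which does not list Foxd3. In that table, the estimated counts of Tubb3 were 94.6 ± 13.9 at E13, 175 ± 67.6 at E15 (n = 6), and 268 ± 75.8 at E16 after normalization. The E15 teeth, between 100 and 276, spread from the E13 to the E16 range. Tubb3 rose from E13 to E15 (log2 fold change 0.93, adjusted p = 0.00369, with 26.8% of 13447 genes called), whereas E16 against E15 was not past the threshold (0.59, adjusted p = 0.141, with 6.33% of genes called). The E14 teeth are not in this table, so that the E14 and E15 levels were not compared.

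Stmn2 was lowest at E15. Its normalized estimated counts were between 44.2 and 75.3 at E13, 18.9 and 57.2 at E15, and 89.4 and 142 at E16. It rose from E15 to E16 (log2 fold change 1.70, SE 0.24, adjusted p = 7.23e-05), and the E13 to E15 difference of -0.64 had an adjusted p of 0.0540. Elavl4 was at 51.2 ± 15.1 at E13, 21.98 ± 14.6 at E15, and 22.8 ± 13.95 at E16, with a log2 fold change from E13 to E15 of -1.19 (adjusted p = 0.0601). Erbb3 rose from E13 to E15 (0.51, adjusted p = 0.00473), and Sox10 was at 90.1 ± 32.02, 75.7 ± 42.5, and 50.2 ± 22.2 without a call.

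**Figure D5:**
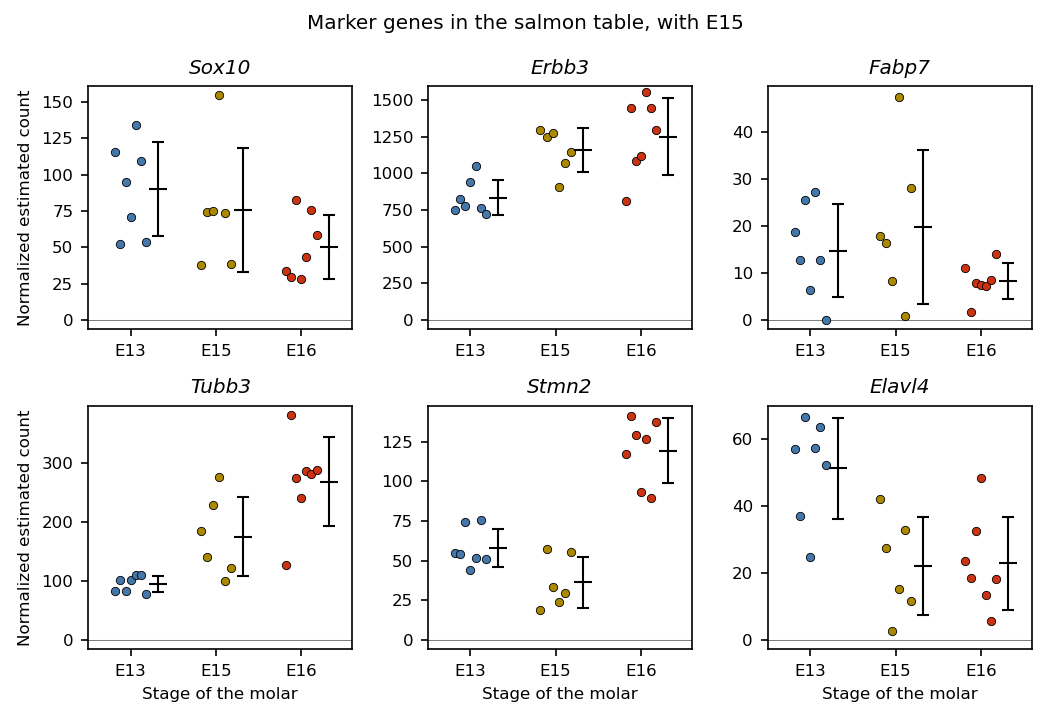
Normalized estimated counts (y axis) of 6 markers in the salmon table at E13, E15, and E16 (x axis). Each point is 1 tooth (7, 6, and 7), with the mean ± SD beside it and a grey line at 0. Stmn2 at E15 (18.9 to 57.2) lies below all E16 teeth, and Sox10 overlaps between the stages.

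In this table, Fabp7 was between 0.886 and 47.4 and Prph between 0 and 13.3 normalized estimated counts at E15, both within or around the scatter of the other stages. The E13 to E16 comparison of the table called Erbb3 (0.60), Tubb3 (1.52), and Stmn2 (1.06) higher and Elavl4 (-1.14) lower, with 36.4% of genes called. The log2 fold change of Sox10 was -0.82 there, against -0.83 in the HTSeq counts, with an adjusted p of 0.0519. The E15 teeth were deposited apart from the other stages, and collection and stage cannot be told apart for them.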

How the data were processed

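RNAseq was measured in single first molars. The authors checked and trimmed reads (FastQC, AfterQC, Trimmomatic), mapped them to GRCm38 by STAR, and deposited raw counts per gene made with HTSeq, without normalization. Whether strand was used in counting is not given in the sources used here. The authors also deposited estimated counts made with salmon, in whole numbers, for 14185 genes of E13, E15, and E16. Symbols, positions, and exon lengths came from GENCODE annotation of GRCm38, which held 52403 of the 52636 identifiers.

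Levels are counts divided by DESeq2 (version 1.42.0) size factors over 21 libraries. Stages were compared with edgeR (version 4.0.16) in R 4.3.3, using glmQLFit and glmQLFTest, TMM, filterByExpr (19101 genes kept, 7 of the 8 members), and a factor for stage, with Benjamini-Hochberg adjustment over all genes and a threshold of 0.05. The estimated counts were tested in a fit of their own. Between teeth, the common biological coefficient of variation was 21.2%, and intervals for a count of 0 cover counting error only. Correlations used a pseudocount of 1 and 100000 permutations in Python 3.11.15 with numpy 2.4.6. The tests were tested on simulated data. Labels name embryos and sides, and teeth of 1 embryo were treated as separate samples, so that p values measure the spread between teeth. The column of 1 E13 tooth carries an embryo name that no label holds, and it was used as an E13 tooth only. Alternatives were DESeq2, no filter on low values or a minimum count of 10 in 7 libraries, embryos summed, embryo number or side in the model, a pseudocount of 0.1, the salmon table, levels per kilobase, and each tooth left out. The named genes are the 8 members, and of the further lists the genes with large changes in each direction and the highest level, except a few that are not reported here. The members and lists were chosen with earlier results of these data known.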

Additional observations from a re-analysis of the deposited data

Results flagged for a closer look

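In 24 groups of 7 teeth (8 genes at 3 stages), 1 tooth lay apart from its group by Dixon's test at the 95% level, which flags about 1 in 20 groups by chance. Erbb3 in the right tooth of embryo 2 at E14 was at 1380 normalized counts, whereas the next highest E14 teeth were at 1072, so that the gap was 0.572 of the range of the stage, just above the critical value for 7 teeth. The same tooth had the highest E14 values of Sox10 (91.2) and Prph (18.6) and the lowest E14 values of Tubb3 (208) and Elavl4 (30.7). It stayed in all comparisons, and without it the log2 fold change of Erbb3 from E14 to E16 was 0.51 (adjusted p = 0.00400).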

How the results depend on the processing

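Of 615 recomputed single-gene comparisons, 596 kept their direction and their side of the threshold, and the 10 that changed sign were not past it in either setting. The counts of members called were within 1.5 times of those reported with DESeq2, other filters, other size factors, or side in the model. From E14 to E16, 1 member in place of 2 was higher when the teeth of an embryo were summed (Erbb3 adjusted p = 0.0584) and with embryo number as a replicate block (1 higher, Erbb3 adjusted p = 0.0526). From E13 to E16, 1 member was lower in the salmon table, which lacks Foxd3 (Sox10 adjusted p = 0.0519). Leaving out 1 tooth gave 0 to 1 members lower from E13 to E14, where the call is that of Foxd3 without the left tooth of embryo 3 at E16. Sox10 from E13 to E16 had adjusted p values from 0.00873 to 0.149 over its alternatives, the highest with the replicate block, and the cause was not tested. Embryo numbers only name embryos. Same-numbered teeth of 2 stages deviated from their stage means with r between -0.09 and 0.21, so that the numbers do not pair the samples. With 1 tooth left out, the log2 fold changes that changed sign ranged from -0.14 to 0.075 for Elavl4 and from -0.17 to 0.20 for Stmn2 (E14 against E13), and from -0.43 to 0.13 for Fabp7 and from -0.16 to 0.10 for Tubb3 (E16 against E14). Without both teeth that stood apart, an alternative chosen after seeing the data, as was leaving them out of the marker lists and the correlations, that of Tubb3 was 0.092. Counts under about 10 in Foxd3, Fabp7, and Prph limit what the depth can show for these genes.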
